A study of Mus musculus with 8 samples.

Results

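The comparison described here sets sperm RNA of male mice under a low protein diet against sperm RNA of male mice under a caloric restriction diet. It was made of the 3 arrays, out of 8 in the study, whose titles name sperm and either restricted diet. These are low protein replicates 1 and 2 and the caloric restriction array. The other arrays are 3 of control diet sperm, used here to tell which restricted diet departed from control, and 1 each of control and low protein epididymis. All animals were labelled C57/Bl6. Control and low protein males ate their diet up to an age of 9 to 12 weeks and were then housed briefly with females, all of which had been weaned to control diet. The labels give no age, start or degree of restriction for the caloric restriction male or males, and they do not say how many animals an array holds. Sperm came from the caudal epididymis at a purity above 99.5% by microscopy, and any preparation in which q-RT-PCR detected Actb or Myh11 was to be rejected. Nothing in the labels states that each replicate is a different animal, and the p-values here measure no more than the spread among these arrays.

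Mature sperm transcribe little or nothing, and their RNA is mostly what round and elongating spermatids left behind. Those spermatids build the flagellum, whose axoneme of microtubules is moved by dynein arms, and the acrosome, a vesicle that releases enzymes and exposes fusion proteins at the egg. They also replace histones, first with transition proteins and then with protamines, and they stock the tail with germ cell forms of glycolytic enzymes. Sperm collected from the epididymis can carry RNA of epididymal epithelium, smooth muscle and connective tissue along with their own.

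In short, many genes of flagellum, acrosome and sperm energy supply were brighter on the caloric restriction array than on both low protein arrays, by medians of 0.62 to 0.90 on the log2 scale for the axoneme, acrosome and glycolysis lists. The genes that package spermatid chromatin were not: their median difference was 0.23 in the other direction, which came from low protein replicate 2 (0.53) and not replicate 1 (0.0). By median they were not alone in differing little. The capacitation, piRNA and meiotic lists had medians of low protein minus caloric restriction of -0.19, -0.16 and -0.11. By count they were unlike packaging. At an unadjusted limma p under 0.05, 6 of 18, 5 of 15 and 6 of 17 of their members were higher under caloric restriction. For packaging it was 1 of 14, and for all genes 7.37%. Against control sperm, these tail and acrosome genes were brighter under both diets, and further so on the caloric restriction array. Being brighter than control was not particular to them, since the median of every germ cell list was above control under both diets. For packaging it was 0.82 above under low protein and 0.61 under caloric restriction. No gene passed the test across all genes, and the low protein replicates differed from each other more than low protein replicate 1 differed from caloric restriction.

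Values are log2 probe set intensities, and a difference of 1 is 2-fold. The labelled tissue was checked on the spermatid packaging genes, whose mean log2 level was 7.97 to 8.41 in control sperm, 8.78 and 9.24 under low protein and 8.84 under caloric restriction, against 6.08 in control epididymis. Actb, the cytoskeletal actin on which preparations were screened, read 11.43, 11.61 and 11.47 in control sperm, 11.04 and 10.49 under low protein and 11.28 under caloric restriction. Myh11, the smooth muscle myosin of the same screen, read 8.13, 7.98 and 7.94 in control sperm, 7.51 and 7.09 under low protein and 7.85 under caloric restriction. Both were therefore above the log2 level of 5.69, at or below which genes were left out of the test, on every sperm array.

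Distances between whole arrays came before any gene. Over the 13587 genes tested, the log2 differences between low protein replicate 1 and caloric restriction had an SD of 0.37, with 320 genes at least 1 apart. Low protein replicate 2 and caloric restriction were separated by an SD of 0.55, with 976 such genes. The low protein replicates themselves were separated by an SD of 0.52 and 816 genes, of which 782 were lower on replicate 2. Control replicates were closer, with SDs of 0.22 to 0.31 and 6 to 29 genes. The caloric restriction array lay at SDs of 0.50, 0.55 and 0.58 from the controls. Low protein replicate 1 lay nearer to them, at 0.28, 0.32 and 0.38, and replicate 2 further away, at 0.56, 0.71 and 0.75. The diet label thus did not order the arrays by distance.

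**Figure D1:**
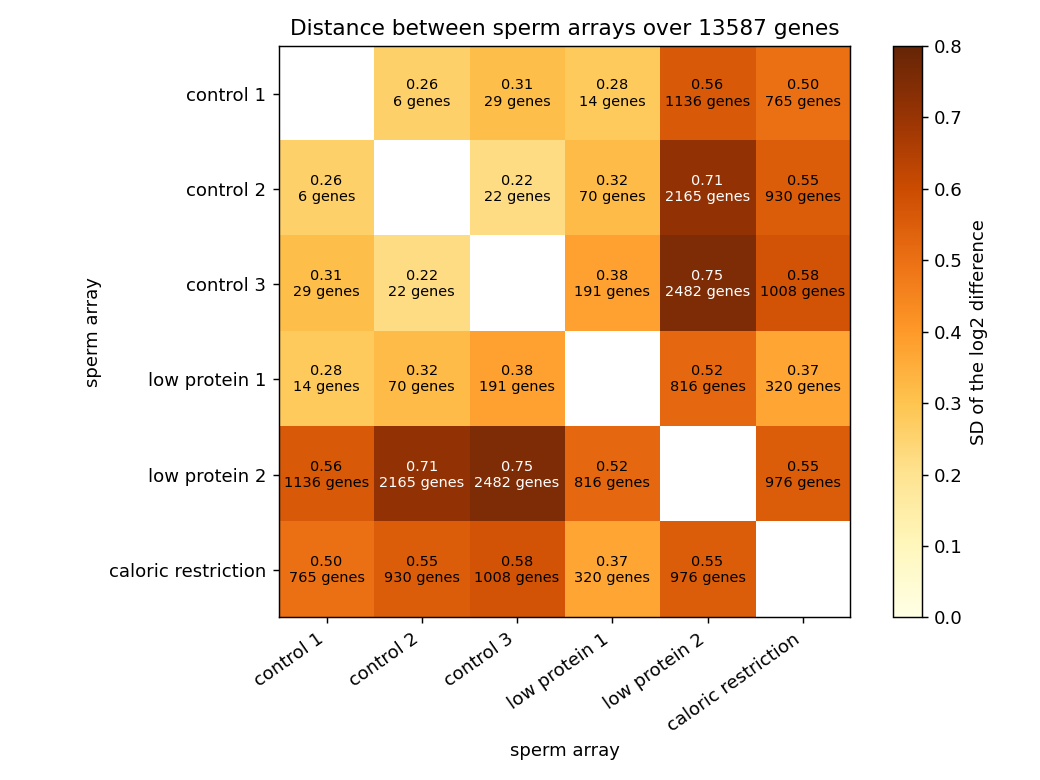
Spread of log2 differences between each pair of sperm arrays over 13587 genes (SD, darker is larger), with the number of genes at least 1 apart. The low protein pair (0.52, 816 genes) was further apart than low protein replicate 1 and caloric restriction (0.37, 320 genes).

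Sperm of the diets were then compared gene by gene with limma, taking the spread from the replicates of control and low protein, since caloric restriction has 1 array. Of 13587 genes, 0 (0.0%) passed a Benjamini-Hochberg adjusted p of 0.05, and the smallest adjusted p was 0.0646. At an unadjusted p under 0.05 there were 1002 genes (7.37%) higher under caloric restriction and 314 (2.31%) higher under low protein. On simulated arrays of the same design the test recovered 28% of genes given a change of 1 and 99% of those given a change of 2. The simulated noise was independent between genes, with the same spread per gene on every array. The real low protein replicates were further apart (SD 0.52) than the controls (0.22 to 0.31), so these shares do not give the power on the real arrays. An exact permutation test of 2 arrays against 1 cannot go below a p of 0.333. The single caloric restriction array was taken to vary like the others. Without low protein replicate 1, 1956 genes passed, and without replicate 2, 317 did. Those fits change the low protein value and the spread together, since the spread is then that of the controls alone.

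As a description with no test, 178 genes (1.31%) were at least 1 higher on the caloric restriction array than on each low protein array, and 6 genes (0.0442%) were at least 1 lower. With low protein replicate 2 left out the total of 184 became 320, and with replicate 1 left out it became 976. After quantile normalization of the sperm arrays the counts were 93 and 8. The filter took the mean of all 8 arrays. A gene dim elsewhere could thus pass through a high caloric restriction value, here and in the list counts below. Among the genes named below, Zdhhc11, BC061237, Spaca1, Cylc2, Cox7b2, Tdrd6 and Smc1b would fall below the limit of 5.69 without that array. With no filter the counts were 231 and 17. The nearest genes inside the first limit included Dcst1, and the nearest outside was Aptx, both at -1.0 after rounding. In the other direction Mtag2 was just inside at 1.08, and Olfr1382, at 1.0 after rounding, was just outside. For the 178 genes the median gap between the low protein replicates was 0.13, against 0.34 over all genes. The rule asked both replicates to lie on the same side, which favours genes on which they read alike. The small gap is thus no separate finding.

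Control sperm were used to place the diets, with departure taken as at least 0.5 outside the range of the controls. For low protein both arrays had to depart on the same side, for caloric restriction its 1 array. The genes were also chosen for a caloric restriction value far from low protein. Both rules tilt the split towards caloric restriction alone. Of the 178 genes, 117 departed under caloric restriction alone, 60 departed upwards under both diets, 1 under neither, and 0 under low protein alone. The median of caloric restriction minus control over these genes was 1.95, and that of low protein minus control was 0.61. All 178 were above every control under caloric restriction, and on 147 of them both low protein arrays were too. The split depends on the distance chosen: at 0.25 it was 57 genes under caloric restriction alone and 120 under both, and at 1 it was 168 and 0. Atp13a3, a membrane transport ATPase, was the gene in neither class: caloric restriction, at 7.35, was at the top of the control range (6.79 to 7.35), and low protein, at 6.32 and 5.98, was below it.

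The 178 genes were weighted to germ cells. In control sperm 93 of them (52.2%) were at least 1 brighter than in control epididymis, against 5.99% of all genes tested. Of the 178, 34 (19.1%) were on the germ cell lists, against 1.51% of all genes tested, and 2 (1.12%) were only on other lists, against 3.49%. The lists were chosen with earlier results of these data known, so these shares are a description only. Another 17 (9.55%) were named only as RIKEN clones, against 3.16%. In bulk RNA, more cells of a kind and more RNA per cell cannot be told apart.

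Of the 12 leading genes on this side, 7 were on a germ cell list. Adgb, an androglobin of the testis, read 7.31, 7.19 and 7.45 in control sperm, 8.17 and 8.14 under low protein and 10.18 under caloric restriction. The difference was -2.02 ± 0.22 (SE; 2 arrays against 1; limma adjusted p 0.0646). The low protein arrays lay above every control by more than 0.5, and caloric restriction stood further above all 5. Spag6, a protein of the central pair of the axoneme, read 7.40, 7.02 and 7.19 in controls, 7.70 and 7.87 under low protein and 9.63 under caloric restriction, a difference of -1.84 ± 0.24 (limma adjusted p 0.0646). Catsper3, a pore subunit of the calcium channel of the sperm tail, read 6.10, 5.78 and 6.04 in controls, 6.58 and 6.61 under low protein and 8.46 under caloric restriction, a difference of -1.86 ± 0.23 (limma adjusted p 0.0646). For both genes the low protein values lay above the controls without overlap and far below caloric restriction.

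Izumo1, the sperm protein that binds its receptor on the egg, read 6.43, 6.32 and 6.12 in controls, 7.01 and 7.0 under low protein and 8.70 under caloric restriction. Its difference was -1.69 ± 0.22 (limma adjusted p 0.0646). Efcab9, a calcium sensor of the CatSper channel, read 6.03, 6.08 and 6.01 in controls, 6.88 and 6.86 under low protein and 8.52 under caloric restriction (-1.65 ± 0.20). The 3 diets did not overlap on either gene, with low protein in the middle. Fsip2, a fibrous sheath protein, had a difference of -1.91 ± 0.30, and its low protein values of 7.01 and 6.73 lay above controls of 5.63 to 6.26. Zdhhc11, Mdm1, Dydc1, Lrriq1 and BC061237 made up the rest of the first 12, at -1.89 to -1.68.

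Speer3, of a rodent family expressed in the testis, led the whole list, at 6.57, 6.07 and 6.07 in controls, 6.70 and 6.57 under low protein and 9.06 under caloric restriction. Its difference was -2.43 ± 0.27 (limma adjusted p 0.0646), and its low protein values met the control range. All 4 Speer genes tested were at least 1 lower on both low protein arrays, with a median of -1.52. Speer genes are near-identical copies, so their probe sets may share signal and do not count as independent.

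**Figure D2:**
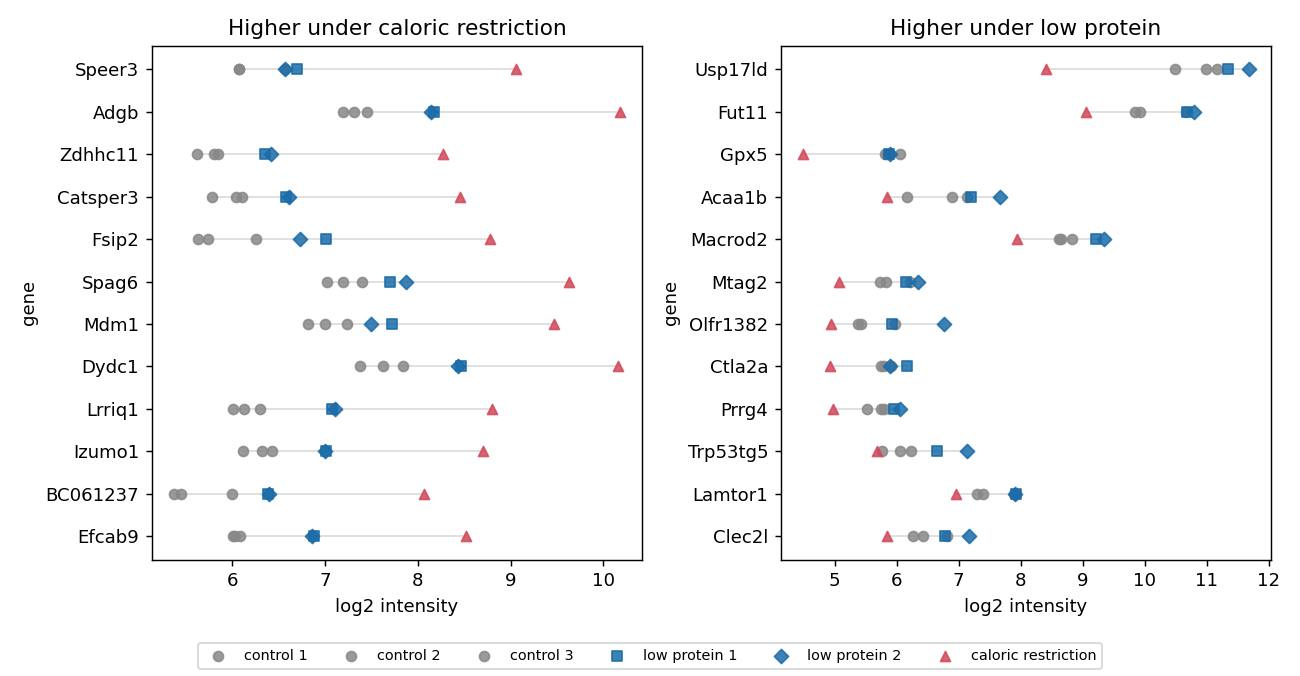
Log2 intensity on each sperm array (grey controls, blue low protein, red caloric restriction) for the 12 genes leading each direction, ordered by the smaller distance between caloric restriction and the low protein arrays. On the left, caloric restriction stands alone to the right of the other 5 arrays; on the right it stands to the left of them, nearest to a control for Trp53tg5 (5.69 against 5.76).

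Promoters of these genes were read because the genes stood apart together. RefSeq promoters (GRCm38.p6) matched 146 of the 178 genes, with 177 promoters, and 10824 of all genes tested, with 13746. Among the 250 bases before the start, on both strands, GTTGCC, a core of the X-box bound by RFX factors of ciliary genes, was found in 18.1% of the promoters of the 178 genes and in 11% of all. The full cAMP response element TGACGTCA, the site of CREM in spermatids, was found in 4.52% and 2.4%. The 100 bases before the start are printed for 5 genes with the first string and for Izumo1 with the second, capitals marking the match or its reverse complement.
Adgb (chr10:10472400-10472499, minus strand): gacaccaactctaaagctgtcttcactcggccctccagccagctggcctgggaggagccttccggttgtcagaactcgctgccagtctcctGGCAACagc
Spag6 (chr2:18698922-18699021, plus strand): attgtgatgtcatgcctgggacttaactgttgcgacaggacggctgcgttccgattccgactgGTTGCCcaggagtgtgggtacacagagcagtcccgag
Dydc1 (chr14:41072811-41072910, plus strand): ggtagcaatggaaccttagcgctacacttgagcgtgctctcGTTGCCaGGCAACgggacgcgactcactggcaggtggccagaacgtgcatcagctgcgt
Lrriq1 (chr10:103236323-103236422, minus strand): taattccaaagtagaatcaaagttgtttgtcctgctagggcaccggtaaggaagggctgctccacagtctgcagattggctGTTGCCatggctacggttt
Enkur (chr2:21205366-21205465, minus strand): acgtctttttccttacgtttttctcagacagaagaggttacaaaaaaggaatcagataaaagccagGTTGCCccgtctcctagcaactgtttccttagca
Izumo1 (chr7:45621711-45621810, plus strand): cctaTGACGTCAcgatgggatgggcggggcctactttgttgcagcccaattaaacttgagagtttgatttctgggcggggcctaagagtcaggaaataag

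The matches lie close to the start in these 5 genes, at 9 bases before it in Adgb, 37 in Spag6, 59 and 52 in Dydc1, 19 in Lrriq1 and 34 in Enkur. Of the first 12 genes, 10 had a promoter, 4 of those held GTTGCC and 1 held TGACGTCA. In all 13 strings were searched, chosen after the values were seen, and a match is a description of letters only. Of these, 3 were longer forms of the X-box, which extend that core over its centre and into its mirror site. They stood in 5 (2.82%), 2 (1.13%) and 2 (1.13%) of the 177 promoters of the 178 genes, against 0.553%, 0.0727% and 0.116% of all. These longer forms are nested: the same 2 promoters hold the last 2 forms and are among the 5. The looser core GTTNCC stood in 48.6% against 41.0%, TGACG in 28.2% against 24.7% and TGACGTAA in 0.565% against 0.633%. AACNGTC stood in 7.91% against 6.04% and AACTGTC in 3.39% against 2.36%. The TATA box as TATAAA stood in 5.65% against 6.74%, the CAAT box as CCAAT in 32.2% against 34.0%, and the E-box as CACGTG in 4.52% against 7.93%. These strings overlap: GTTNCC contains GTTGCC, and TGACG is part of TGACGTCA.

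Gene lists were read by how many members had an unadjusted limma p under 0.05, against 7.37% higher under caloric restriction and 2.31% higher under low protein over all genes. By the adjusted test, 0 members of every list passed. The axoneme list, of tektins, radial spokes and central pair proteins, had the largest share among the germ cell lists: 26 of its 36 tested members had such a p and were higher under caloric restriction, and 0 were higher under low protein. Its median was -0.90, with -0.99 for low protein replicate 1 and -0.71 for replicate 2, against -0.02 over all genes. Both low protein arrays were below caloric restriction on 30 of 36, against 30.1% of all genes. Enkur, a protein of flagella and cilia that binds calcium channels, read 6.15, 6.16 and 6.36 in controls, 7.18 and 7.18 under low protein and 8.77 under caloric restriction, a difference of -1.59 ± 0.21 (limma adjusted p 0.0646).

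Axonemal dyneins, the motors of the flagellum, had 8 of 18 members higher under caloric restriction at that p and 1 higher under low protein. Their median was -0.53. Dnah6, a heavy chain of the inner arm, read 6.67, 6.68 and 6.37 in controls, 7.45 and 7.42 under low protein and 8.97 under caloric restriction (-1.54 ± 0.23; limma adjusted p 0.0646). Dnah3 carries 33 probe sets on this array, and all of them were lower under low protein, at -2.06 to -0.51 with a median of -1.41. Its brightest probe set gave -1.18 ± 0.22. Dnah12 differed by -1.02 ± 0.23. Of 13 Dnah genes tested, both low protein arrays were below caloric restriction on 11 and above it on 2.

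The fibrous sheath and outer dense fibers, which stiffen the tail, were split by replicate: the median was -0.71 for low protein replicate 1 and -0.14 for replicate 2, and 6 of 17 members were higher under caloric restriction at that p. Ropn1l, a sheath protein that binds kinase anchors, differed by -1.01 ± 0.22 and Cylc2, of the cytoskeleton of the sperm head, by -0.84 ± 0.36. The sperm ion transport list, of CatSper, potassium and proton carriers, had 6 of 14 members higher under caloric restriction at that p, and 5 were at least 1 apart. Catsper4, another pore subunit, read 6.89, 6.92 and 6.66 in controls, 7.39 and 7.50 under low protein and 9.10 under caloric restriction (-1.66 ± 0.22; limma adjusted p 0.0646). The 4 Catsper genes tested ranged from -1.86 to -0.15, with both low protein arrays below caloric restriction on 3 of them. Capacitation signalling, the kinases and cyclases by which sperm become able to fertilise, had 6 of 18 at that p, and its median of -0.19 was -0.37 for low protein replicate 1 and 0.05 for replicate 2, so its direction turned with the replicate. Among these, Prkar1a, a regulatory subunit of protein kinase A, differed by -0.89 ± 0.24, Tssk4, a spermatid kinase, by -0.88 ± 0.21 and Akap3, a kinase anchor of the tail, by -0.82 ± 0.23.

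Acrosome and zona binding genes had a median of -0.62, with -0.79 for low protein replicate 1 and -0.41 for replicate 2, and 14 of 28 were higher under caloric restriction at that p against 1 higher under low protein. Spaca1, a membrane protein needed to shape the acrosome, read 5.65, 5.50 and 5.66 in controls, 6.55 and 6.25 under low protein and 7.95 under caloric restriction. It passed the filter only through the last of these values. Spaca7, an acrosomal protein, read 5.94, 5.85 and 5.97, then 6.86 and 6.82, then 8.42 in the same order. Both had all low protein values above the controls and below caloric restriction, with differences of -1.56 ± 0.23 and -1.58 ± 0.21 (limma adjusted p 0.0646 for each). Pdilt, a chaperone of spermatids for surface proteins, differed by -1.52 ± 0.24. Of 7 fusion genes tested, 3 were at least 1 apart: Izumo1, Dcst2 at -1.34 ± 0.22 and Dcst1 at -1.23 ± 0.25, the last a pair of membrane proteins needed for fusion with the egg.

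Energy genes of sperm had a median of -0.70, similar on the low protein replicates at -0.80 and -0.64, with 12 of 22 higher under caloric restriction at that p and 0 higher under low protein. Gk2, a glycerol kinase of the testis, read 7.16, 6.94 and 7.30 in controls, 7.51 and 7.80 under low protein and 9.08 under caloric restriction (-1.43 ± 0.25; limma adjusted p 0.0751). Slc16a7, a carrier of pyruvate and lactate, differed by -1.21 ± 0.22, and Cox7b2, a testis form of a respiratory subunit, by -1.08 ± 0.30.

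Chromatin packaging genes formed the contrast to these lists. Their median was 0.0 for low protein replicate 1 and 0.53 for replicate 2. Of 14 tested, 1 was higher under caloric restriction at that p and 0 under low protein, and both low protein arrays were above caloric restriction on 7, against 29.9% of all genes, and below it on 1. Prm1 and Prm2, the protamines, and Tnp1 and Tnp2, the transition proteins, were picked after their values were seen. Prm1 read 10.69, 10.58 and 9.88 in controls, 10.80 and 11.44 under low protein and 10.85 under caloric restriction (0.27 ± 0.39; limma adjusted p 0.865). Tnp2 read 11.02, 10.69 and 10.15, then 11.14 and 11.75, then 10.95 in the same order (0.49 ± 0.39). The caloric restriction array thus lay between the low protein replicates on Prm1 and among the controls on Tnp2. Prm2 differed by -0.13 ± 0.26 and Tnp1 by 0.39 ± 0.34. Brdt, a bromodomain protein that reads acetylated histones as they are removed, was the member on the other side, at -0.73 ± 0.22. Tssk6, a kinase needed in that exchange, gave 0.60 ± 0.30 and H2ap, a histone-like protein, 0.53 ± 0.26.

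The unequal behaviour of these lists can be followed within each array, where a shift of equal log2 size on all germ cell genes cancels. The mean log2 level of the axoneme list minus that of the packaging list was -1.44, -1.42 and -1.25 in control sperm, -1.33 and -1.58 under low protein and -0.47 under caloric restriction. Low protein replicate 1 lay within the control range, replicate 2 just below it, and caloric restriction above all 5. Such a difference has no meaning as a level, and it shows unequal change of the lists without saying which of them changed. With 1 array it has no replicate check. These lists were paired after their medians above were seen, so the value under caloric restriction restates that contrast and is no further finding. The lists also differ in brightness, with control means of 6.72 to 6.97 for axoneme and 7.97 to 8.41 for packaging. Within the fibrous sheath and dense fiber list, the bright Odf1 and Tcp11 gave 0.16 and -0.01. Of its dimmer members, Fsip2 and Cylc2 gave -1.91 and -0.84, and Odf4 gave -0.20. Whether the differences follow brightness was not tested. Quantile normalization of the sperm arrays kept the direction of these lists and brought the median to -0.69 for axoneme, -0.34 for dyneins, -0.30 for fibrous sheath and dense fibers, -0.42 for acrosome and -0.52 for glycolysis, and to 0.36 for packaging.

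**Figure D3:**
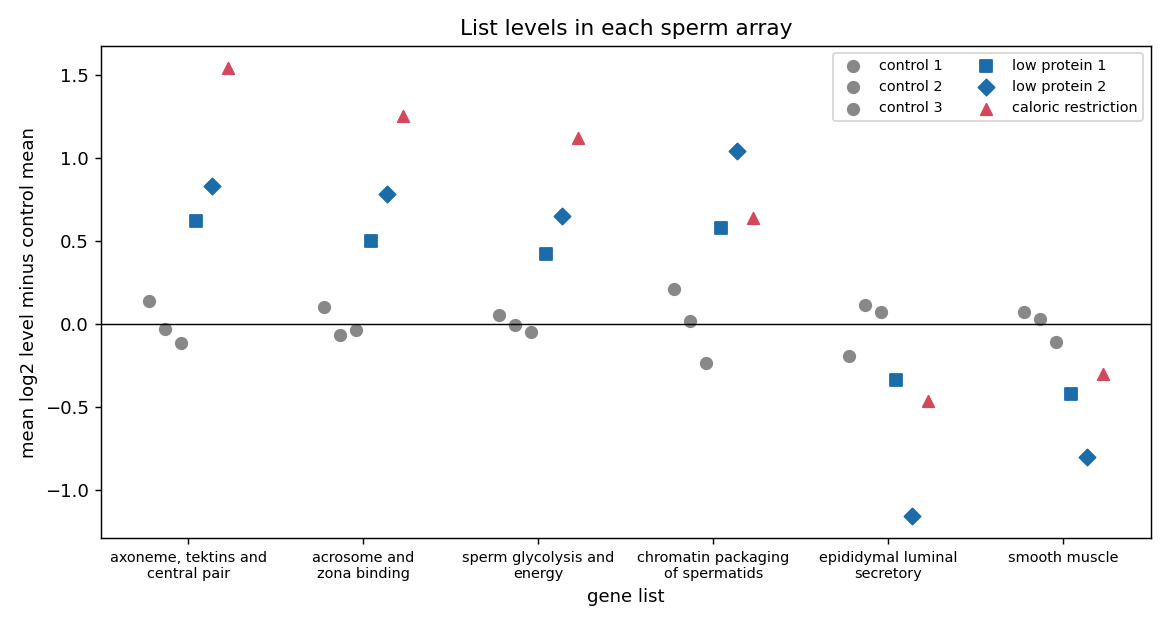
Mean log2 level of 6 gene lists on each sperm array, minus the mean of the controls. For the axoneme list caloric restriction (8.37) is the highest array and low protein (7.45 and 7.66) lies between it and the controls, while for chromatin packaging caloric restriction (8.84) lies between the low protein arrays (8.78 and 9.24).

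Earlier germ cell stages were mixed. The list of meiotic and earlier genes had a median of -0.11 (-0.09 and -0.18 by replicate), with 6 of 17 higher under caloric restriction at that p and 1 higher under low protein. Smc1b, a cohesin of meiotic chromosomes, read 6.01, 5.68 and 5.81 in controls, 6.48 and 6.42 under low protein and 7.72 under caloric restriction (-1.27 ± 0.23; limma adjusted p 0.0751). Rec8, another meiotic cohesin, differed by -0.89 ± 0.22 and Ddx4, a germ cell helicase, by -0.84 ± 0.26. The piRNA pathway, which silences transposons in germ cells, had 5 of 15 at that p, among them Tdrd6 at -1.13 ± 0.24, Tdrd7 at -1.11 ± 0.21 and Mael at -1.08 ± 0.26. Their list medians of -0.11 and -0.16 were nearer to that of all genes than those of the axoneme and acrosome were.

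Few genes were at least 1 higher on both low protein arrays. At any distance, both low protein arrays were above caloric restriction on 29.9% of genes and below it on 30.1%. Usp17ld, a deubiquitinase of a repeated gene family, read 11.16, 10.98 and 10.48 in controls, 11.34 and 11.68 under low protein and 8.41 under caloric restriction. The difference was 3.10 ± 0.31 (limma adjusted p 0.0646), and low protein lay just above the controls, so caloric restriction was the array that departed. Usp17l copies are near-identical and may share signal. Gpx5, a glutathione peroxidase secreted by the epididymis, read 5.81, 6.06 and 5.85 in controls, 5.87 and 5.89 under low protein and 4.49 under caloric restriction (1.39 ± 0.22; limma adjusted p 0.0676), with low protein inside the control range. Macrod2, an ADP-ribose hydrolase, gave 1.33 ± 0.22, but its 6 probe sets ranged from 0.01 to 1.33. Fut11, a fucosyltransferase, gave 1.68 ± 0.35 on one probe set and -0.37 on the other.

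The remaining genes of the 6 were Acaa1b, a peroxisomal thiolase, at 1.58 ± 0.40, and Mtag2 at 1.17 ± 0.26. Acaa1b read 7.13, 6.89 and 6.16 in controls, 7.20 and 7.66 under low protein and 5.85 under caloric restriction. Low protein replicate 2 was more than 0.5 above the controls on this gene, but replicate 1 and caloric restriction were not that far outside them. It was therefore classed under neither diet, while the other 5 of the 6 departed under caloric restriction alone. Lcn2, a lipocalin of innate defence, was lower under caloric restriction (6.64) than on controls of 7.73 to 7.87 and low protein values of 7.68 and 7.52, a difference of 0.96 ± 0.21 (limma adjusted p 0.136). H2-Aa, a chain of MHC class II, read 8.12, 7.98 and 8.00 in controls, 8.28 and 8.27 under low protein and 7.43 under caloric restriction (0.85 ± 0.21), and its partner H2-Ab1 gave 0.62 ± 0.26. The leukocyte list they belong to was mixed, with a median of 0.09. Both low protein arrays were above caloric restriction on 8 of its 19 members and below it on 5.

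Markers of other cells moved with the arrays as well, and their part in the differences above was not tested. The summed level of 23 epididymal luminal secretory genes on the linear scale, as a percentage of the same sum in control epididymis, was 43.7%, 57.6% and 57.0% in control sperm, 38.1% and 17.8% under low protein and 38.0% under caloric restriction. That of 17 smooth muscle genes was 15.6%, 16.2% and 14.1%, then 10.5% and 7.67%, then 12.4%. Fibroblast and matrix genes (19) stood at 32.8%, 33.5% and 41.2%, then 30.1% and 25.6%, then 33.6%. Caloric restriction thus lay beside low protein replicate 1 for the luminal list and above both replicates for muscle and fibroblasts, and replicate 2 was lowest on all 3. Replicate 2 was also lowest for beta-defensins, clear and basal cells, testis somatic cells and abundant genes. It was not for endothelium (62.1% and 83.0% under low protein, 64.5% under caloric restriction), leukocytes (90.9% and 94.2%, then 94.9%) or the erythroid gene (128% and 151%, then 129%). Of the luminal genes, 1 of 23 was higher under caloric restriction and 3 of 23 were higher under low protein at an unadjusted p under 0.05.

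Other lists of this kind gave few such members. Smooth muscle had 2 of 17 higher under caloric restriction, Csrp1, a muscle LIM protein, at 8.63 and 7.72 under low protein against 9.07, and Tagln, an actin-binding protein of muscle, at -0.63. Acta2, the smooth muscle actin, read 8.73 and 6.92 against 9.15 and was not among them. Fibroblast genes had 2 of 19 higher under caloric restriction and 1 higher under low protein. Col1a1 and Col1a2, the chains of type I collagen, differed by -0.88 ± 0.38 and -0.86 ± 0.34, and Bgn, a matrix proteoglycan, by 0.62 ± 0.25. Leukocyte genes had 2 of 19 higher under low protein. Clear and basal cells of the epididymis had 1 of 27 higher under caloric restriction. Beta-defensins, endothelium, testis somatic cells and the 1 erythroid gene tested had 0 members in either direction, of 19, 10, 7 and 1.

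**Figure D4:**
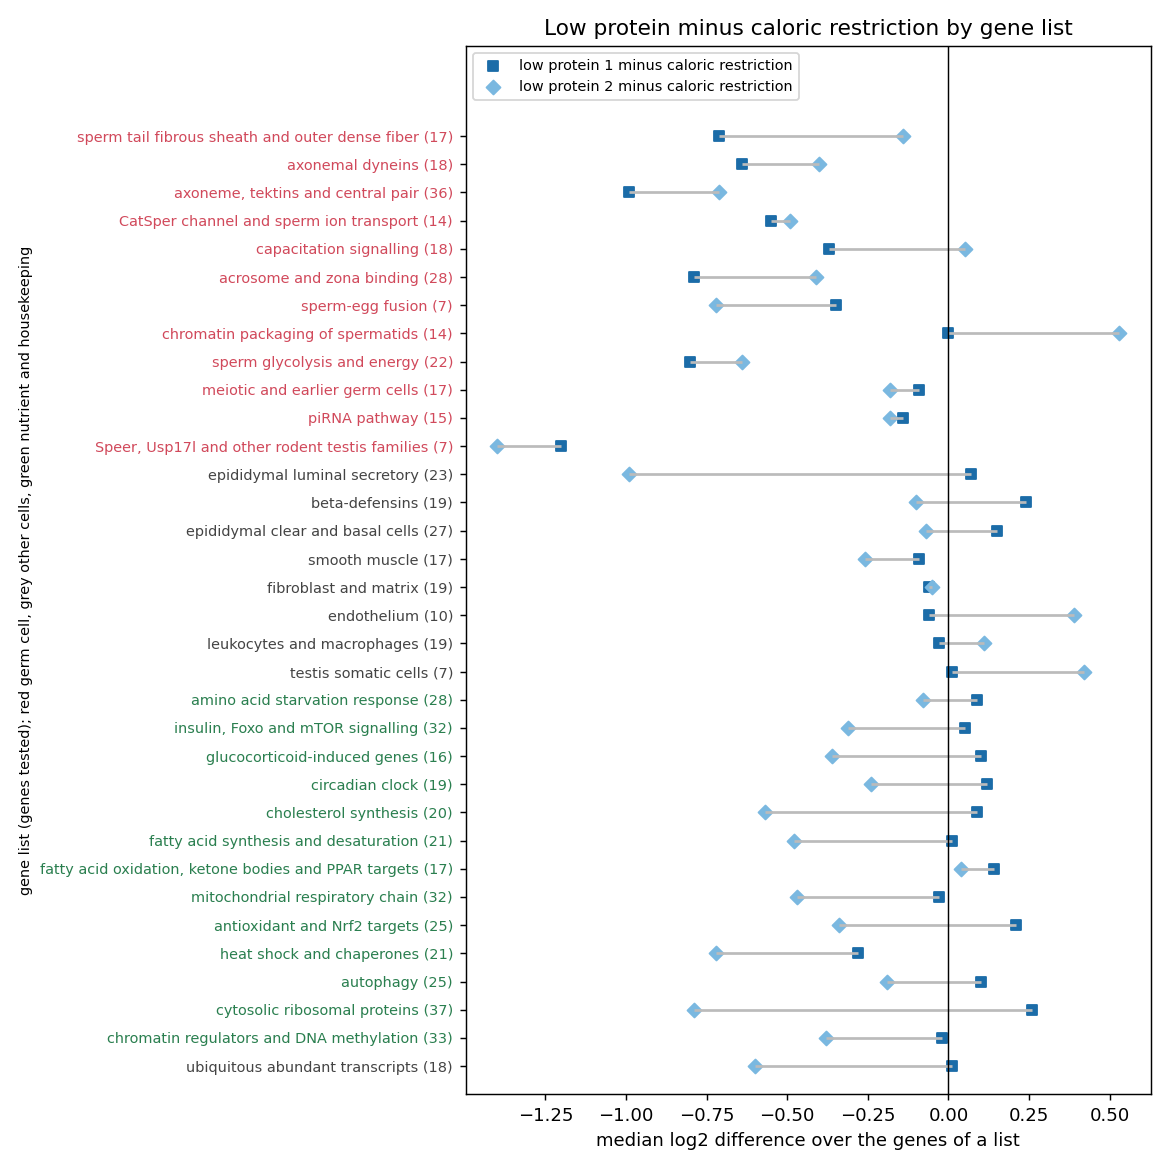
Median over the genes of each list of low protein minus caloric restriction (log2), for low protein replicates 1 and 2, with the number of genes tested in brackets; the erythroid list, with 1 gene, is left out. The axoneme, acrosome and glycolysis lists lie left of 0 on both replicates, while cytosolic ribosomal proteins lie at 0.26 on replicate 1 and -0.79 on replicate 2.

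Nutrient lists were read because the diets restrict different things, protein or calories. Genes of the amino acid starvation response, the program that ATF4 runs when an amino acid is scarce, had a median of -0.02, equal to that of all genes, and 0 of 28 with an unadjusted p under 0.05. Insulin, Foxo and mTOR signalling had a median of -0.11, with 0.05 for low protein replicate 1 and -0.31 for replicate 2, and 0 of 32. The circadian clock, cholesterol synthesis, fatty acid synthesis and fatty acid oxidation lists also had 0, of 19, 20, 21 and 17. Glucocorticoid-induced genes had 1 of 16 in each direction, autophagy had 1 of 25 higher under low protein, and chromatin regulators had 1 of 33 in each direction. Antioxidant genes had 1 of 25 higher under caloric restriction. Each of these counts is 0 or 1 per direction, and with 3 arrays they do not show that the diets act alike.

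Heat shock genes and chaperones were the nutrient list that stood out by count, with 7 of 21 higher under caloric restriction at that p and 0 higher under low protein. The median was -0.51, with -0.28 for low protein replicate 1 and -0.72 for replicate 2. Hsf2, a heat shock transcription factor active in spermatogenesis, read 5.89, 6.42 and 5.97 in controls, 6.60 and 6.36 under low protein and 7.78 under caloric restriction (-1.30 ± 0.28; limma adjusted p 0.127). Hsp90aa1, an HSP90 form abundant in germ cells, read 8.71, 9.03 and 8.84, then 9.17 and 8.89, then 10.00 in the same order (-0.97 ± 0.24). Low protein overlapped the controls on both genes, and caloric restriction lay above. Hsp90b1, the HSP90 of the endoplasmic reticulum, differed by -0.96 ± 0.34, but its caloric restriction value of 9.99 lay within controls of 9.37 to 10.05. The list median was -0.31 after quantile normalization. This list therefore mixes genes high under caloric restriction with genes low under low protein.

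Several other nutrient lists turned on which low protein replicate was read. Cytosolic ribosomal proteins had a median of 0.26 for replicate 1 and -0.79 for replicate 2, cholesterol synthesis 0.09 and -0.57, antioxidant genes 0.21 and -0.34, and the respiratory chain -0.03 and -0.47. The direction of the first 3 against caloric restriction is therefore set by the replicate. Smarcd3, a subunit of a chromatin remodeller, was the plainest single gene of this kind: it read 10.25, 10.53 and 10.61 in controls, 10.22 and 8.05 under low protein and 9.79 under caloric restriction (-0.66 ± 0.71; limma adjusted p 0.814). It was higher than caloric restriction on replicate 1 and lower on replicate 2. Ppard, a nuclear receptor for fatty acids, read 7.92, 8.24 and 7.92 in controls, 7.63 and 6.93 under low protein and 7.05 under caloric restriction (0.23 ± 0.32; limma adjusted p 0.858). It too changed sign with the replicate.

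**Figure D5:**
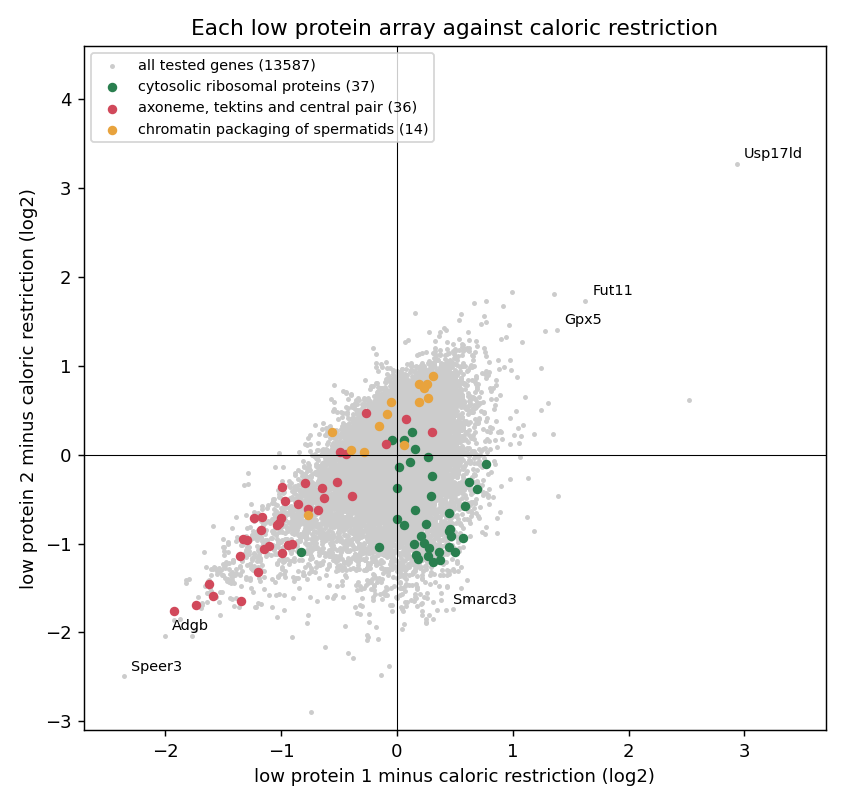
Low protein replicate 1 minus caloric restriction (x axis) against low protein replicate 2 minus caloric restriction (y axis), in log2, for 13587 genes; the axes share the caloric restriction array, so the cloud leans along the diagonal by construction. Most axoneme genes (red) lie lower left, 30 of 36 below 0 on both axes; ribosomal genes (green) lie mostly right of and below 0, and packaging genes (orange) mostly above 0.

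The lists of mitochondrial and abundant genes had 2 members each higher under caloric restriction at that p, of 32 and 18, and ribosomal proteins had 1 of 37. Among the abundant genes Tmsb10, an actin-binding peptide, read 8.76 and 8.91 under low protein against 9.64 under caloric restriction (-0.80 ± 0.22), and Tbp, the TATA-binding protein, 6.81 and 6.78 against 7.33 (-0.53 ± 0.20). Mt1 and Mt2, metallothioneins that bind zinc, differed by -0.62 ± 0.26 and -0.86 ± 0.41. Rpl30, of the large ribosomal subunit, differed by -0.96 ± 0.31, with low protein (5.66 and 5.39) below controls of 5.93 to 6.65 and caloric restriction (6.49) within them.

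Every statement about caloric restriction rests on 1 array, so diet, animal and array cannot be told apart there. Control replicate 3 and the caloric restriction array also stood above the other 6 arrays on 6 of 22 unnamed probe sets at the start of the table, by most on one that read 12.07 and 12.32 on them against 9.48 to 11.04 elsewhere. Caloric restriction was the lowest sperm array on 9 others of the 22, and the part of either in these results was not tested.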

How the data were processed

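Sperm RNA was measured on Affymetrix gene arrays, and the values used were deposited on the log2 scale, 1 per probe set, after RMA per the submitters' processing notes. The RMA version, annotation and build: not given in the sources used here. Of 33660 probe sets, 21222 name 1 gene in the platform annotation, 1541 name several and 10897 are unnamed here. Symbols were updated through gene identifiers for 21137. The brightest probe set stood for each of 19411 genes, and the dimmest 30% (mean log2 of 5.69 and below) were left out, which left 13587. limma 3.58.1 in R 4.3.3 was fitted to all 6 arrays of sperm, each diet having its own mean, and p-values were adjusted by Benjamini-Hochberg over all genes at 0.05. It was tested on simulated data. Array number limits the precision. The members and gene lists were chosen with earlier results of these data known. Genes were named by rule: the 12 leading each direction, up to 3 of each list and 6 of each departure class by size, the 10 of smallest p, and Actb, Myh11, Smarcd3 and Ppard. The protamine and transition protein genes, Aptx, Tagln, the promoter strings and the pairing of the axoneme and packaging lists were added after values were seen. Normalization, filters, probe set choice, weights and left-out arrays were varied.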

Additional observations from a re-analysis of the deposited data

How the results depend on the processing

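No paired analysis was possible because the labels give each array a letter and no replicate number shared between diets. The count of genes passing limma at an adjusted p of 0.05 was 0 and became 23 with a mean-variance trend, 66 with array weights, 3 with the low protein and caloric restriction arrays alone, and 131 at an adjusted p of 0.10. Leaving out 1 array at a time gave 0 to 1956 genes, the highest without low protein replicate 1 and 317 without replicate 2, where 1 array faces 1 and the spread is that of the controls. The 184 genes at least 1 apart became 101 after quantile normalization, 745 at 1.5-fold and 16 at 3-fold, and 184 to 976 when 1 array was left out. Departure at 0.25, a distance added after seeing the data, put 57 genes under caloric restriction alone and 120 above control under both diets. At 1 the second count was 0. Of 84 named genes, 80 kept their direction in every setting in which they were compared, and 62 of the 84 remained with the lowest 50% left out. This is a weak check. Most were named for a large difference, and leaving out a control array cannot change the difference between the restricted diets. Smarcd3 ranged from -1.74 to 0.43, Ppard from -0.12 to 0.58, Prm1 from -0.05 to 0.60 and Prm2 from -0.28 to 0.03 as the low protein replicates were left out in turn. The causes of the other changes were not tested.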
